A study of Mus musculus with 6 samples.

Results

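The genes examined were *Nnt* and 9 other genes of NADPH supply and glutathione and peroxide metabolism, 10 of the 19831 genes listed for the inguinal adipose tissue (iAT) of young mice. They were picked by name, and all 10 were found in the table. *Nnt* was chosen on its difference between the genotype values of these same data, and the other 9 were selected by function, as sources of NADPH or as parts of the mitochondrial peroxide defense. The values of the 10 genes are therefore given as a description, and no test was attached to them. The question was whether the other genes moved together with *Nnt* or opposite to it. The series compared 3 wild-type (WT) samples with 3 samples from mice without *Npffr1*, the gene of a neuropeptide FF receptor (Npffr1-KO). All 6 samples were iAT at postnatal day 6, from animals kept under SPF conditions. The labels name neither the sex, the litter nor the mouse substrain of either group, and do not say whether each sample came from 1 animal.

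The mitochondrial enzyme NNT, nicotinamide nucleotide transhydrogenase, sits in the inner membrane and uses the proton gradient to pass hydride from NADH to NADP+. Inside mitochondria NADPH is also made by isocitrate dehydrogenase 2 and by malic enzymes, and in the cytosol by the pentose phosphate pathway, malic enzyme 1 and isocitrate dehydrogenase 1. NADPH keeps glutathione and thioredoxin reduced, and these in turn feed the glutathione peroxidases and peroxiredoxins that remove hydrogen peroxide. In adipose tissue cytosolic NADPH is also the reductant for fatty acid synthesis. *Nnt* is further known for an internal deletion of several exons that C57BL/6J mice carry and C57BL/6N mice lack.

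Sequences around annotated starts are shown for 3 cytosolic NADPH enzymes, because these were the members whose windows held the core of the antioxidant response element, the site bound by NRF2. The windows are those of RefSeq on GRCm38, from 250 bases before to 50 bases after an annotated start, and 8 of the 10 genes matched one by symbol. *Nnt* and *Gsr* were not among them. The core was searched as TGACNNNGC on both strands and is printed in capitals. It was found for 3 of the 8 genes and in 12.4% of all 32851 windows. These shares are not alike, because the first counts genes, which can have several windows, and the second counts windows. The *Me1* window is chr9:86695865-86696164, the *G6pdx* window chrX:74428831-74429130 and the *Pgd* window chr4:149166033-149166332, all read on the minus strand.
Me1: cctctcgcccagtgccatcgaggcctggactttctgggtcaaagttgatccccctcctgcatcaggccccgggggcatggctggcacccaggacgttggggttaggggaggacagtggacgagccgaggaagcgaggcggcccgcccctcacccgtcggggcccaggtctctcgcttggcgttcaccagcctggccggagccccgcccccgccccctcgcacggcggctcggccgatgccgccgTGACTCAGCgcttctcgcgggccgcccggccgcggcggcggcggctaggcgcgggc
G6pdx: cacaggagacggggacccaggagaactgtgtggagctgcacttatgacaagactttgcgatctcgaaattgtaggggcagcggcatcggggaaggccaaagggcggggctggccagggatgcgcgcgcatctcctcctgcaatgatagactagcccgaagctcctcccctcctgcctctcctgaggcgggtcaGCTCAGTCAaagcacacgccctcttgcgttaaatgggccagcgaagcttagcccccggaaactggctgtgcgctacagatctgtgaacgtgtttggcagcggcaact
Pgd: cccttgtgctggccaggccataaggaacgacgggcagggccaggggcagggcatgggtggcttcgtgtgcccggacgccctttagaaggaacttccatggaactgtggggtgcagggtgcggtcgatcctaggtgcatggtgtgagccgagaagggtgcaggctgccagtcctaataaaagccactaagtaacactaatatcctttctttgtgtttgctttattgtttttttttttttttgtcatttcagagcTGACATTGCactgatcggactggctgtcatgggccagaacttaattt
The matches began at base 245 of the *Me1* window, base 194 of the *G6pdx* window and base 254 of the *Pgd* window, of which the second lay on the opposite strand of its window. For *Me1* and *Pgd* a further window without a match was listed. The printed *Pgd* window belongs to a start inside the gene, its match lies after that start in transcribed sequence, and the window at the outer start had no match. The estrogen-related receptor element, searched as TNAAGGTCA on both strands, was found for 0 of the 8 genes and in 1.28% of all windows. A match describes the letters only.

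The table holds a single value for each gene and genotype, in normalized counts, which are read counts scaled for library size. Over all genes these values summed to 23137343 in WT and to 23640005 in Npffr1-KO, and the library size factors lay between 0.916 and 1.04. The tissue label was checked on adipocyte genes. *Fabp4*, a fatty acid binding protein, had 156285 normalized counts in WT and 173188 in Npffr1-KO, and *Adipoq*, encoding adiponectin, had 37027 and 35360. The deleted gene *Npffr1* had 1.12 normalized counts in WT and 0.855 in Npffr1-KO, so at this depth its level says little about the labels. Each genotype value is also drawn towards the other, and genes with 1 read in all have a value above 0 in both. Because 1 value per genotype is all that is given for the 10 genes, they have no replicate spread. For each gene the log2 ratio of the Npffr1-KO value to the WT value is given, and a gene is called past the fold when this ratio is at least 1.5-fold in size, or 0.58 on the log2 scale.

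*Nnt* (Entrez 18115) showed the largest difference of the 10 genes. It had 650 normalized counts in WT and 1593 in Npffr1-KO, a log2 ratio of 1.29 or 2.45-fold. Among the 15309 genes with a mean of 10 or more normalized counts this was the 29th highest ratio, at the 99.8th percentile. Across all genes the ratio varied with gene length, and after subtracting the median of genes of like length the log2 ratio of *Nnt* was 1.36. *Sod2*, the manganese superoxide dismutase of the mitochondrial matrix, followed with 2326 normalized counts in WT and 3612 in Npffr1-KO, a log2 ratio of 0.63 at the 97.8th percentile. The other 8 genes did not reach 1.5-fold. Of the 10 genes 2 were thus past the fold, both higher in Npffr1-KO, while 5.89% of all 15309 genes were past it, 2.78% higher and 3.12% lower. Nothing is read from this comparison, since the contrast itself had a part in the choice of *Nnt*.

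**Figure D1:**
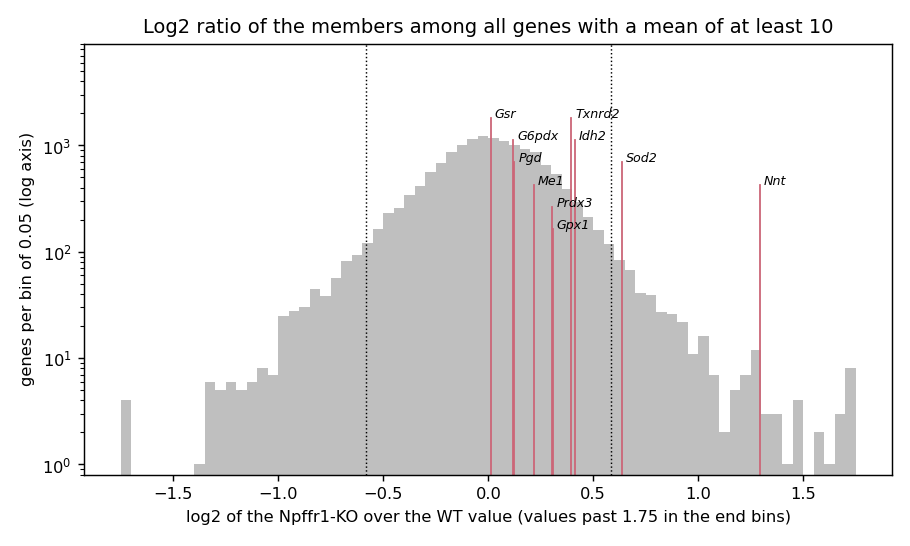
Log2 of the Npffr1-KO over the WT value for the 15309 genes with a mean of 10 or more normalized counts, in bins of 0.05 with a log axis for the number of genes. Values beyond the axis are in the end bins. Red lines mark the 10 members, their height having no meaning, and dotted lines the 1.5-fold threshold; *Nnt* at 1.29 and *Sod2* at 0.63 lie beyond it, and the other 8 lie between 0.01 and 0.41.

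All 9 genes beside *Nnt* had a ratio above 0, from 0.01 for *Gsr* to 0.63 for *Sod2*, with a median of 0.30 on the log2 scale before centring on gene length. Centring lowered the ratio of each of the 9 except *Me1* and *Sod2*, for example that of *Gpx1* from 0.31 to 0.10. Over all genes with a mean of at least 10 the median was 0.01, and 51.2% had a ratio above 0. In these values none of the 9 genes was lower in Npffr1-KO, where *Nnt* was higher, although *Gsr* turned to -0.01 after centring on gene length. The 4 other mitochondrial members, *Idh2*, *Txnrd2*, *Prdx3* and *Sod2*, had log2 ratios from 0.30 to 0.63. The 3 cytosolic NADPH enzymes *Me1*, *G6pdx* and *Pgd* had log2 ratios from 0.12 to 0.22, below each of the mitochondrial members, but after centring on gene length *Me1* with 0.24 lay above *Prdx3* with 0.19. *Gsr* and *Gpx1*, whose products work in both compartments, had 0.01 and 0.31. Without a value per sample, it was not tested whether the mitochondrial and the cytosolic genes differed.

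Among the mitochondrial sources of NADPH, *Idh2*, encoding isocitrate dehydrogenase 2, had 3528 normalized counts in WT and 4694 in Npffr1-KO, a log2 ratio of 0.41. After centring on gene length the value of *Idh2* was 0.29. *Me2*, encoding a mitochondrial malic enzyme, had 745 normalized counts in WT and 1051 in Npffr1-KO, a log2 ratio of 0.50. It was placed in the list of NADPH sources, but these values do not show whether its enzyme makes NADPH or NADH. *Glud1*, the mitochondrial glutamate dehydrogenase and the highest of that list in normalized counts, though below *Idh2* per kilobase, had a log2 ratio of 0.08 with 5262 normalized counts in WT and 5565 in Npffr1-KO. Of the 9 genes in the list, 1 was past the fold, *Nnt* itself, and the median log2 ratio was 0.08. The list also holds *Nadk2*, whose enzyme, an NAD+ kinase, does not itself make NADPH, with a log2 ratio of -0.18. The folate enzyme genes of the list went apart, with log2 ratios of 0.49 for *Mthfd2*, -0.07 for *Mthfd2l* and -0.40 for *Aldh1l2*. Of the 9 genes 5 had a ratio above 0.

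Divided by the listed gene length, which allows genes to be compared, *Nnt* was the lowest of the 10 genes in WT, at 164 normalized counts per kilobase. In Npffr1-KO it stood at 402 per kilobase and above *Txnrd2*, which had 232 in WT and 305 in Npffr1-KO. *Gpx1* was the highest in both, at 5547 and 6860 normalized counts per kilobase. In WT the level of *Idh2* per kilobase was 12.5 times that of *Nnt*, and in Npffr1-KO 6.80 times. The summed level of *Nnt*, *Idh2* and *Me2* per kilobase was 2521 in WT and 3562 in Npffr1-KO, a log2 ratio of 0.50, and without *Nnt* the log2 ratio of the sum was 0.42. *Me3*, another mitochondrial malic enzyme gene, was not in these sums, with 11.8 per kilobase in WT and 11.2 in Npffr1-KO. The sums are of RNA and do not measure the supply of NADPH. For the cytosolic *Me1*, *G6pdx*, *Pgd* and *Idh1* the sums were 6449 and 7259 per kilobase, a log2 ratio of 0.17. No spread can be given for the order of these levels.

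**Figure D2:**
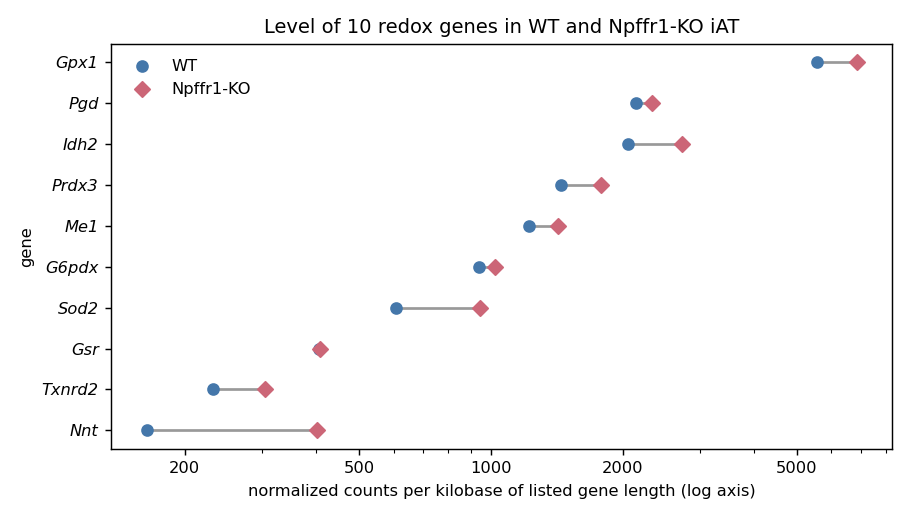
Normalized counts per kilobase of listed gene length on a log axis for the 10 genes, with circles for WT and diamonds for Npffr1-KO, each the authors' single value for a genotype. *Nnt* goes from 164 to 402 per kilobase and shows the longest line, while the points of *Gsr* at 405 and 408 nearly coincide.

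Of the 3 cytosolic members, *Pgd* and *G6pdx* had smaller ratios than several other genes of their list, and *Me1* lay near the list median. *Pgd*, encoding the 6-phosphogluconate dehydrogenase of the pentose phosphate pathway, had 4774 normalized counts in WT and 5200 in Npffr1-KO, a log2 ratio of 0.12. *G6pdx*, encoding glucose-6-phosphate dehydrogenase at the entry to this pathway, had 2488 and 2703, also a log2 ratio of 0.12. *Me1*, encoding cytosolic malic enzyme, had 3992 and 4637, a log2 ratio of 0.22, or 0.24 after centring on gene length. These are the genes whose windows are printed above, that of *Pgd* being at a start inside the gene. Of the 9 genes in the list 0 were past the fold in either direction, 8 had a ratio above 0, and the median of the list was 0.21. Besides cytosolic NADPH enzymes the list holds *H6pd*, of the endoplasmic reticulum, and *Nadk* and *Pgls*, whose enzymes do not themselves make NADPH. *Idh1*, encoding cytosolic isocitrate dehydrogenase, had a log2 ratio of 0.21, and *Nadk*, the kinase that makes NADP+ from NAD+, one of 0.07. The folate enzyme genes *Mthfd1* and *Aldh1l1* had 0.50 and 0.32 on the log2 scale. *Pgls*, encoding the lactonase between the steps of *G6pdx* and *Pgd*, had 0.42, or 0.22 after centring on gene length, and *H6pd*, encoding hexose-6-phosphate dehydrogenase of the endoplasmic reticulum, had -0.14. In the non-oxidative branch of the pentose phosphate pathway *Tkt*, encoding transketolase, had 6275 normalized counts in WT and 8715 in Npffr1-KO, a log2 ratio of 0.47. *Taldo1*, encoding transaldolase, had 0.40, and *Rpe* and *Rpia* had 0.31 and 0.12.

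On the side of glutathione, *Gsr*, encoding the reductase that spends NADPH to restore glutathione, had 1091 normalized counts in WT and 1100 in Npffr1-KO, a log2 ratio of 0.01. After centring on gene length this was -0.01. *Gpx1*, encoding a glutathione peroxidase of cytosol and mitochondria, had 5914 and 7313, a log2 ratio of 0.31. The gene is short, and after centring on gene length the value of *Gpx1* was 0.10. In the list of 10 genes with the reductase, peroxidases and glutaredoxins, 9 had a ratio above 0 and 1 was past the fold. After centring on gene length 5 of the 10 were above 0, and the median log2 ratio went from 0.22 to 0.02. The gene past the fold was *Gpx3*, encoding the secreted plasma peroxidase, with 2020 normalized counts in WT and 3596 in Npffr1-KO. Its log2 ratio was 0.83, and 0.72 after centring. *Gpx4*, which reduces lipid peroxides, had a log2 ratio of 0.44, or 0.23 after centring. Genes for the making and import of glutathione did not all go in the same direction. *Gclc* and *Gclm*, encoding the subunits of the rate-limiting ligase, had log2 ratios of -0.02 each. *Gss*, encoding glutathione synthetase, had 0.30, and *Oplah*, encoding 5-oxoprolinase, had 0.46. The mitochondrial glutathione carriers *Slc25a39* and *Slc25a40* had log2 ratios of 0.33 and -0.23, and *Slc3a2*, encoding the heavy chain of the cystine transporter and the highest of the list in normalized counts, though below *Slc25a39* per kilobase, had -0.03. In this list of 9 genes 0 were past the fold, and 5 had a ratio above 0, or 6 after centring on gene length. The median log2 ratio of the list was 0.22, or 0.21 after centring. Its highest ratio was that of *Ggct* with 0.52, or 0.41 after centring.

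*Txnrd2*, encoding the mitochondrial thioredoxin reductase, had 446 normalized counts in WT and 586 in Npffr1-KO, a log2 ratio of 0.39. Its substrate *Txn2*, the mitochondrial thioredoxin, had 3137 and 4382, a log2 ratio of 0.48, and *Prdx3*, the mitochondrial peroxiredoxin it serves, had 2090 and 2578, a log2 ratio of 0.30. The cytosolic counterparts were *Txnrd1* with a log2 ratio of 0.06, *Txn1* with 0.26 and *Prdx1* with 0.37, and among other peroxiredoxin genes *Prdx2* had 0.38 and *Prdx6* 0.18. After centring on gene length *Txnrd2* and *Txn2* had 0.31 each and *Prdx3* had 0.19. *Txnrd1*, *Txn1* and *Prdx1* had 0.09, 0.06 and 0.26 after centring. All 6 peroxiredoxin genes had a ratio above 0, with a median of 0.26, and 0 of them were past the fold, but after centring on gene length *Prdx4* and *Prdx5* turned to -0.19 and -0.05. In the thioredoxin list 1 gene was past the fold in the other direction. *Txnip*, whose product binds and inhibits thioredoxin, had 33021 normalized counts in WT and 21034 in Npffr1-KO, a log2 ratio of -0.65. *Sod2* was the only gene past the fold among the 5 genes of superoxide dismutases and catalase. The cytosolic *Sod1*, the extracellular *Sod3* and *Cat*, encoding catalase, had log2 ratios of 0.23, 0.18 and -0.05, and centring on gene length turned *Sod1* to -0.04. NRF2, the factor that binds the antioxidant response element, had a log2 ratio of 0.08 for its gene *Nfe2l2*. Of the 8 genes in the list of *Nfe2l2*, its inhibitor *Keap1* and its targets 0 were past the fold, and their log2 ratios ranged from -0.02 to 0.23, the latter for *Hmox1*, encoding heme oxygenase 1.

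**Figure D3:**
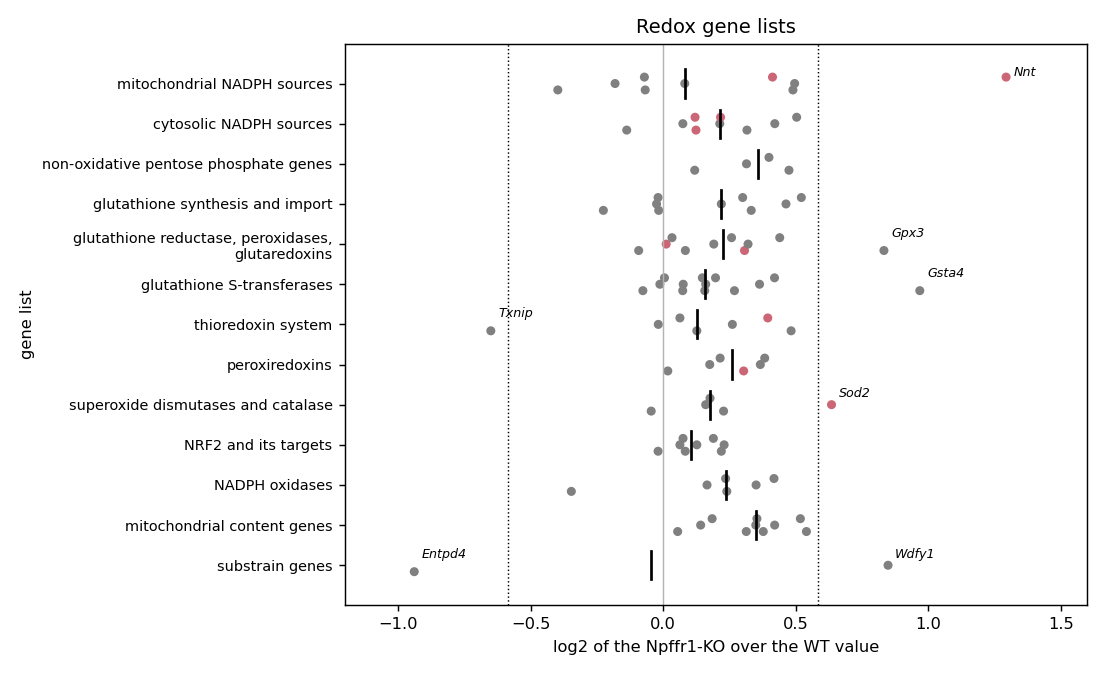
Log2 of the Npffr1-KO over the WT value for the genes of each list with a mean of 10 or more normalized counts, with red points for the 10 members, grey points for other genes and a black bar for the median of the list. Names are given to genes past 1.5-fold, marked by dotted lines: of the redox genes *Nnt*, *Gpx3*, *Gsta4* and *Sod2* are higher and *Txnip* is lower, and the row of substrain genes shows *Wdfy1* and *Entpd4*.

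Over all redox lists, 82 genes were found, all with a mean of at least 10, of which 4 were past the fold higher and 1 lower. These are 6.1% of the 82 genes, near the 5.89% of all genes, so the share past the fold is no result about the lists. Among the 72 of them that were not members 56 had a ratio above 0, beside 51.2% of all genes with a mean of at least 10. The median log2 ratio of the 72 was 0.18, or 0.07 after centring on gene length, when 43 were above 0. Of 10 genes of mitochondrial content 10 had a ratio above 0, and the highest in normalized counts were *Atp5a1*, of ATP synthase, with 0.35, *Cs*, encoding citrate synthase, with 0.54 and *Cox4i1*, of cytochrome c oxidase, with 0.42. Their median log2 ratio was 0.35, beside 0.41 for *Idh2*, 0.39 for *Txnrd2* and 0.30 for *Prdx3*. After centring on gene length it was 0.30, beside 0.29 for *Idh2*, 0.31 for *Txnrd2* and 0.19 for *Prdx3*. The values that follow were taken without centring on gene length. Relative to the median of 0.35, an alternative chosen after seeing the data, *Nnt* kept a log2 ratio of 0.94 and *Sod2* of 0.28. *Idh2* and *Txnrd2* then had 0.06 and 0.04, *Prdx3* and *Gpx1* had -0.05 and -0.04, *Me1* had -0.14, and *Pgd*, *G6pdx* and *Gsr* had -0.23, -0.23 and -0.34.

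Markers of several cell types differed between the genotype values. Over all genes with a mean of at least 10, 2.78% were past the fold higher and 51.2% had a ratio above 0. The 7 thermogenic adipocyte genes summed to 1569 normalized counts in WT and 5212 in Npffr1-KO, and of the 6 with a mean of at least 10, 5 were past the fold higher. Among them *Cox8b* and *Cidea* had log2 ratios of 1.77 and 2.23. The 5 skeletal muscle genes summed to 297 and 623, with 4 of the 4 measured at a mean of at least 10 past the fold higher, and the 4 lymphocyte genes summed to 7724 and 10187, with 2 past it. The 3 endothelial genes summed to 48763 and 38530, with log2 ratios from -0.41 to -0.28. The 7 adipocyte genes summed to 284895 and 305810. Of these, 5 had a ratio above 0 and 1 was past the fold, *Lep*, encoding leptin, with a log2 ratio of 1.05. The 5 macrophage genes summed to 17266 and 20209, with 3 above 0 and 0 past the fold. The 4 erythroid genes summed to 128981 and 146624, with 4 above 0 and 0 past the fold. The 3 keratinocyte genes were near 0, at 8.28 and 8.97 in sum, as were the thermogenic *Elovl3* and the muscle gene *Myh4*. The part of these markers in the values of *Nnt* and the other members was not tested, and in whole tissue more cells of a type and more RNA per cell cannot be told apart.

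In the GENCODE annotation of GRCm38, an assembly made from C57BL/6J, *Nnt* spans chr13:119335448-119408997 on the minus strand. The annotation has 4 protein-coding transcripts of *Nnt* with up to 17 exons, the longest of 3464 bases, while the table lists a length of 3963 bases, 499 more. A single value per gene does not show which exons the reads came from, and which annotation the authors counted on is not given here. Of the sequences of 31 bases in *Nnt* transcripts 0.67% occur in transcripts of other genes. The share was 30% for *Me1*, 26.6% for *Sod2*, 12.6% for *G6pdx* and 1.54% for *Pgd*, whose values are less certain in this respect, and 0% for the other 5 members.

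Neighbours of *Nnt* on its chromosome are given where their mean was 10 or more normalized counts, and none of these reached its ratio. *Paip1*, the nearest of those given on one side and involved in translation, had 1492 normalized counts in WT and 1509 in Npffr1-KO, a log2 ratio of 0.02. *Fgf10*, a growth factor gene and the nearest of those given on the other side, had 1241 and 1262, also 0.02. The middles of *Paip1* and *Fgf10* lay at 71.9 kb and -618.8 kb from that of *Nnt*. The following genes were *4833420G17Rik* with a log2 ratio of -0.17 and *Mrps30*, encoding a mitochondrial ribosomal protein, with 0.31. Of the neighbours described here the largest difference with a mean over 100 was in the opposite direction, for *Gm7120* with 338 normalized counts in WT and 181 in Npffr1-KO, a log2 ratio of -0.90. *Gm7120* overlaps *3110070M22Rik*, and reads in the overlap cannot be told apart without strand. The remaining neighbours described here were *Emb* with 0.41, *3110070M22Rik* with -0.32 and *Ccl28* with -0.56, of which the latter pair had means of 18.5 and 19.8 normalized counts.

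**Figure D4:**
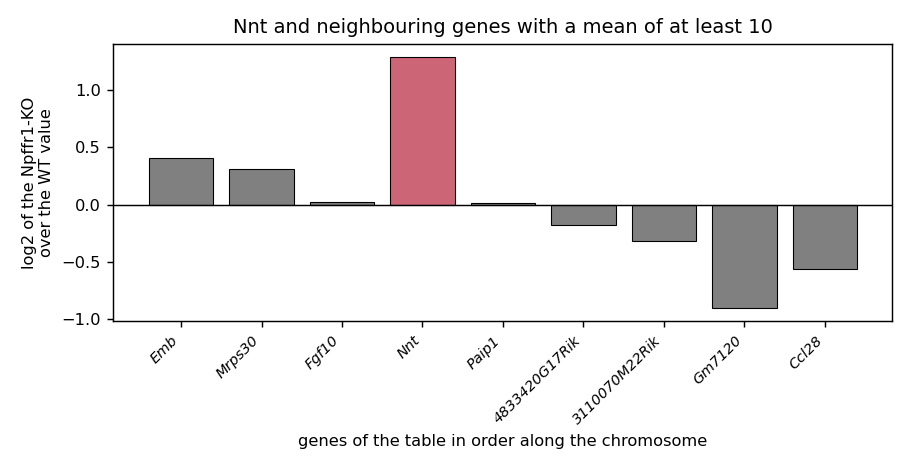
Bars of the log2 of the Npffr1-KO over the WT value for *Nnt* and its neighbours with a mean of 10 or more normalized counts, in their order along the chromosome. *Nnt* stands alone at 1.29, *Paip1* and *Fgf10*, the nearest shown on either side, lie at 0.02, and *Gm7120* lies at -0.90.

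A short list was made, from general knowledge, of genes described as differing in transcript level between C57BL/6J and C57BL/6N besides *Nnt*, and 2 of its 3 genes were in the table. The list was made with earlier results of these data known, so its values are given as a description only. No reported direction between the substrains is set beside them. *Wdfy1*, encoding an endosomal protein, had 703 normalized counts in WT and 1265 in Npffr1-KO, a log2 ratio of 0.85 at the 99.1th percentile. *Entpd4*, encoding a nucleotidase of the Golgi and lysosomes, had 2567 and 1338, a log2 ratio of -0.94 at the 0.50th percentile. Of the sequences of 31 bases in *Entpd4* transcripts 100% are found for other genes too, among them its copy *Entpd4b*, so that its value is uncertain. *Wdfy1* lies on chromosome 1 and *Entpd4* on chromosome 14. As the labels name no substrain, a difference in substrain between the groups and the loss of *Npffr1* cannot be told apart here.

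For low genes the reads of each library could be worked out, since the mean of the genotype values is a sum of whole reads divided by the size factors. This gave a single combination for 6 redox genes with a mean between 10 and 200 normalized counts, none of which is among the 10 members. *Ggct*, encoding gamma-glutamylcyclotransferase, had 92.7, 120 and 103 normalized reads in 3 WT libraries, against 172, 138 and 153 in 3 of Npffr1-KO. Every Npffr1-KO library lay above every WT library, with means of 105 ± 14.0 and 154 ± 16.7 (SD, n = 3 each) and a log2 ratio of 0.55. *Nox4*, encoding an NADPH oxidase, had 105, 149 and 133 in WT and 96.4, 98.9 and 105 in Npffr1-KO. Its groups touched without overlap, at 105.3 and 104.7, with means of 129.02 ± 22.04 and 100.01 ± 4.30 (SD, n = 3 each). Groups without overlap were found for 19.5% of the 3842 genes whose reads were worked out, a share that the search itself touches, since each library was searched only within 50% of its genotype value, or somewhat wider for means under 50.

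*Aldh1l2*, the mitochondrial folate enzyme, had 165, 210 and 172 normalized reads in WT and 86.7, 200 and 118 in Npffr1-KO. Here 1 Npffr1-KO library lay among the WT libraries, so that the groups overlapped, and the log2 ratio of the means was -0.44. *Slc7a11*, the cystine transporter that feeds glutathione synthesis, had 122, 68.5 and 137 in WT and 140, 156 and 90.6 in Npffr1-KO. *Nqo1*, encoding an NAD(P)H quinone reductase and NRF2 target, had 48.3, 78.3 and 99.2 in WT and 66.5, 89.8 and 82.9 in Npffr1-KO. *Me3*, another mitochondrial malic enzyme, had 61.8, 43.1 and 49.6 in WT and 49.1, 49.5 and 48.0 in Npffr1-KO. In these 3 genes the groups overlapped and the difference of the means, at log2 ratios of 0.24, 0.08 and -0.08, was smaller than the SD of the WT libraries.

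**Figure D5:**
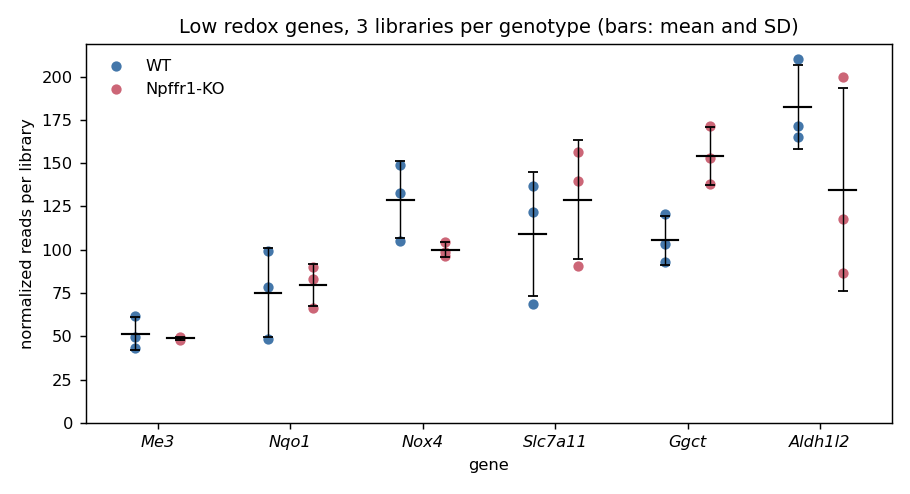
Normalized reads in each of 3 WT (blue) and 3 Npffr1-KO (red) libraries for the 6 redox genes whose reads were worked out, with black bars for the mean and SD. The groups of *Ggct* lie apart, those of *Nox4* touch, and those of *Me3*, *Nqo1*, *Slc7a11* and *Aldh1l2* overlap.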

How the data were processed

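The authors sequenced RNA extracted from iAT with TRIzol and deposited 1 table with a signal per gene and genotype, made from read counts that they normalized for library size. The submitters' processing notes name Bowtie2, RSEM and DESeq2; their versions and roles, the genome build and the annotation are not stated. Gene length in bases was used as listed. Columns with the authors' fold changes, p-values and direction calls were not used, nor was a second, shorter table. The genotype values are not means of the libraries: in all 6 redox genes whose libraries were worked out their log2 ratio was nearer 0, as for *Ggct* with 0.52 against 0.55 and *Aldh1l2* with -0.40 against -0.44.

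Analysis used Python 3.11.15 with pandas 2.3.3. Genes with a mean of 10 or more normalized counts were ranked by log2 ratio and called past 1.5-fold. For length centring, the median of 20 classes of length was subtracted. Genes with 1 read fall on 6 values, which give 6 size factors, and the genotype of each library was taken from which labelled genotype column was higher for those genes. These libraries were not tied to sample numbers. Whole reads were then searched within 50% of the genotype value (wider for means under 50) for 4428 genes with a mean of 10 to 200. A single combination was found for 86.8%, several for 276 genes and none for 310. A run of the search on simulated reads is not reported here, and no support is drawn from it. The range of means and the width of the search were chosen after trying others on these data: above that mean many genes had several combinations. A combination outside the width would be missed, so a value found can be wrong. All members lie above the range, so no error can be given for them. Nothing in the labels says whether samples were separate animals.

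Named genes were the members, the 3 highest genes of each list and those past 1.5-fold, 5 neighbours of *Nnt* on each side (those with a mean under 10 are not reported here), the 2 genes on each side of it in ratio, and *Npffr1*; marker lists are given mainly by their sums. Other genes were named after their values were seen. Members and lists were chosen with earlier results of these data known.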

Additional observations from a re-analysis of the deposited data

How the results depend on the processing

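With an offset of 10 normalized counts, or after centring on the median gene or on the length class, the log2 ratio of *Nnt* lay between 1.28 and 1.36, and relative to the median of mitochondrial content genes, chosen after seeing the data, it was 0.94. At a threshold of 0.32 on the log2 scale 4 of the 10 members were past the threshold and at 2-fold 1 was, against 2 at 1.5-fold, and the offset and both centrings left 2. The percentage of all genes past the fold was 23.7% at the threshold of 0.32 and 0.797% at 2-fold, and 3.53% for genes with a mean of at least 100 against 5.89% for a mean of at least 10. Of the values for single members and gene lists, centring on the length class turned *Gsr* from 0.01 to -0.01 and moved the median of all redox lists from 0.19 to 0.09, that of superoxide dismutases and catalase from 0.18 to -0.04, that of the glutathione reductase, peroxidase and glutaredoxin list from 0.22 to 0.02 and that of glutathione S-transferases from 0.16 to -0.01. Leaving out 1 library at a time gave log2 ratios from 0.46 to 0.65 for *Ggct*, -0.49 to -0.25 for *Nox4*, -0.83 to -0.20 for *Aldh1l2*, -0.00 to 0.44 for *Slc7a11*, -0.15 to 0.33 for *Nqo1* and -0.19 to 0.08 for *Me3*. No paired analysis was possible because the table holds 1 value per genotype and the libraries behind the low genes carry no sample number. With 1 value per genotype no error can be set on any member.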

Other observations

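Glutathione S-transferases conjugate glutathione to reactive compounds. Of 13 genes 11 had a ratio above 0 with a median log2 ratio of 0.16, or -0.01 after centring on gene length, when 5 were above 0. *Gstz1*, *Mgst1* and *Gstm1*, the highest in normalized counts averaged over the genotypes, had log2 ratios of 0.07, 0.00 and -0.08. *Gstp1*, above *Gstm1* per kilobase, had 0.42, or 0.15 after centring. *Gsta4*, encoding the isoform that detoxifies lipid aldehydes, was past 1.5-fold with 125 normalized counts in WT and 245 in Npffr1-KO, a log2 ratio of 0.97. For *Gsta4* 7 combinations of whole reads matched, so no values per library are given. Genes of the phagocyte NADPH oxidase, which spends NADPH to make superoxide, had log2 ratios of 0.35 for *Cyba*, or 0.08 after centring on gene length, 0.16 for *Ncf1*, 0.24 for *Cybb* and 0.42 for *Ncf4*.

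Among the 12219 genes with a mean of 100 or more normalized counts, *Nnt* held the 17th place by ratio. The genes just above it were *Dapl1* and *Adtrp*, each with a log2 ratio of 1.30, and the genes just below it were *Ppp1r3b*, encoding a regulator of glycogen synthesis, with 1.27 and *Acta1*, the skeletal muscle actin, with 1.26. These 4 genes had 85.9, 69.5, 377 and 171 normalized counts in WT, against 650 for *Nnt*.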
